A study of Mus musculus with 7 samples.

Results

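The 9 genes described here belong to the fibroblast growth factor (FGF) family. The ligands are Fgf1, Fgf2, Fgf7, Fgf10 and Fgf18, and the FGF receptors are Fgfr1, Fgfr2, Fgfr3 and Fgfrl1. They were chosen by name as family members known from skin, with earlier results of these data known. They are 9 of the 55450 Ensembl genes in the deposited count table, and all 9 were among the 17959 genes tested. The RNA came from dorsal skin of wild type C57BL/6 male mice aged 24 months, 1 library per mouse. In both groups the back was clipped, depilated and cleansed with ethanol, and the skin was kept under a semi-occlusive dressing for 5 days. Mice 480, 481, 482 and 483 received the vehicle DMSO and mice 476, 477 and 478 received 5 μM ABT-263 in DMSO. ABT-263 (navitoclax) is a small molecule that blocks BCL-xL and BCL-2, proteins that keep cells from apoptosis, and is used to kill senescent cells. No untreated skin was sequenced, so each value after ABT-263 is read against skin that had carried the solvent and the dressing too.

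FGF ligands are secreted proteins that bind receptor tyrosine kinases together with heparan sulfate, and the activated receptor signals through the adaptor FRS2 and the Ras-ERK cascade. In skin the traffic runs mainly from dermis to epidermis: fibroblasts secrete FGF7 (keratinocyte growth factor) and FGF10, and keratinocytes carry the splice form of FGFR2 that these ligands bind. FGF7 is known for its rise in dermal cells at the edge of a wound. FGFR1 is the main receptor of mesenchymal and endothelial cells, FGFR3 is found in suprabasal keratinocytes, and FGFRL1 lacks the kinase domain.

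Every ABT-263 library (27325963 to 43562330 counts) was larger than every DMSO library (20344364 to 26824123). Each member was counted in every mouse, with between 13 and 98 read pairs for Fgf18, 24 and 65 for Fgf10, 36 and 940 for Fgf7, and 1308 and 5044 for Fgfr1. The libraries held the defining genes of epidermis and dermis, with Krt5 between 3356 and 9150 counts per 1e+06 counts (CPM) and Col1a1 between 1707 and 3718 CPM over the 7 mice. They also held skeletal muscle, with Acta1 between 8745 and 18200 CPM, a tissue that lies beneath the dermis of the mouse. Mouse 481 stood apart in markers of the growing hair follicle, with a sum of 2249 CPM against 32.6 to 37.7 CPM in the other DMSO-treated mice. The treated mice differed in this too, with 427 CPM in mouse 478 against 4.72 and 11.4 CPM in mice 476 and 477. Mouse 476 had the highest sum of neutrophil and of macrophage markers (8318 and 2726 CPM). The fold change of Fgf7 is given without mouse 476 too, and that of Fgfr2 without mouse 476 and without mouse 481. For many other results, ranges or counts over the fits with a mouse left out are given.

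Of the 9 members, 2 rose after ABT-263 (Fgf7 and Fgfr1) and 0 fell, by the quasi-likelihood test of edgeR with a threshold of 0.05 on the Benjamini-Hochberg adjusted p-value over all genes. That is 22.2% of the members, and 24.2% of all genes tested passed in one direction or the other (12.4% higher and 11.7% lower). The share of called members was thus near that of the whole table. The other 7 members had log2 fold changes between -0.74 and 0.26. The median over the members was -0.060 and that of all genes tested was 0.0022. The same 2 genes were the only members whose groups did not overlap, a state reached by 37.1% of all genes tested (18.7% with the ABT-263-treated mice above). When single mice were left out, the number of members that passed ran from 0 to 2.

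**Figure D1:**
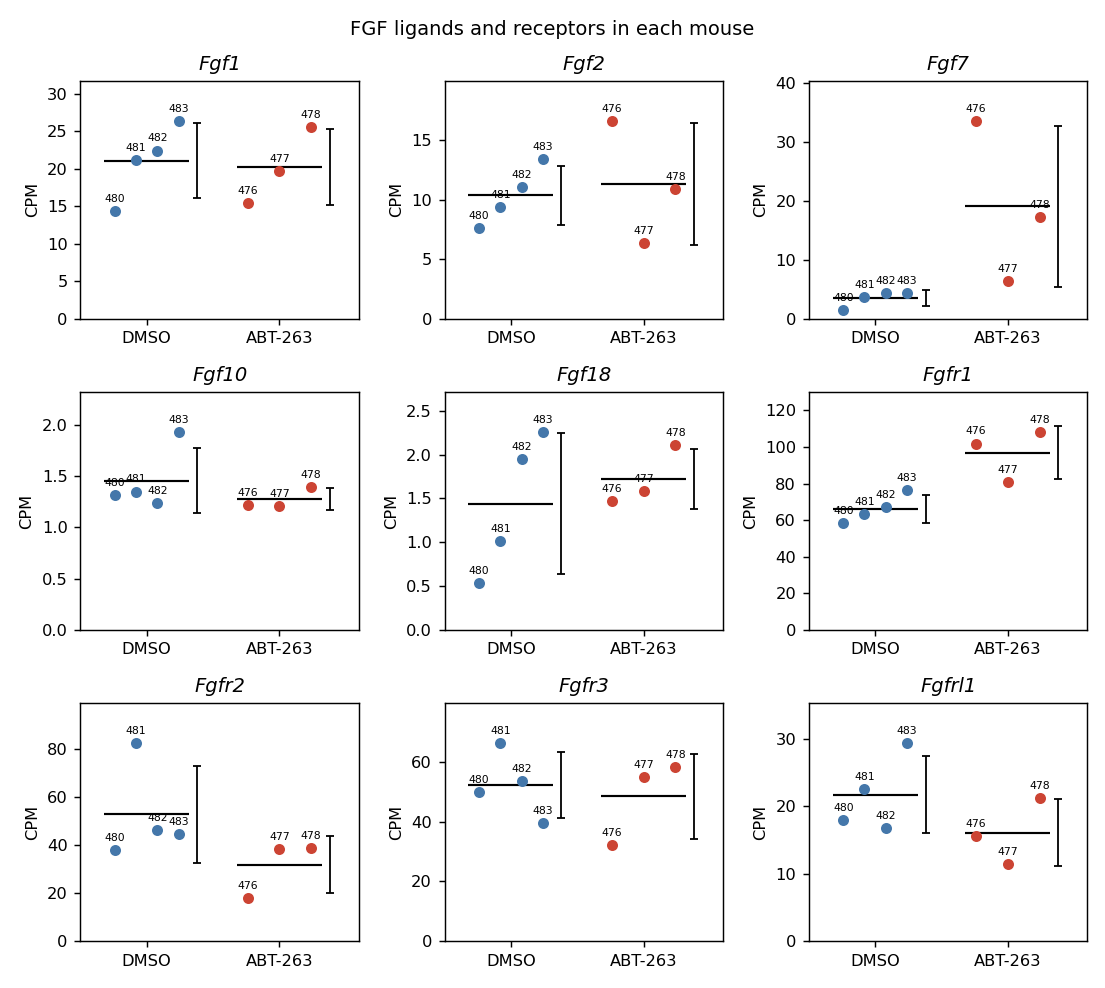
Expression of each member in CPM (vertical axes, each from 0) in the 4 DMSO-treated and 3 ABT-263-treated mice, 1 point per mouse with its number. Horizontal lines are group means and the bars beside them are 1 SD. In the panels of Fgf7 and Fgfr1 all ABT-263-treated mice lie above all DMSO-treated mice, and in the other 7 panels the groups overlap.

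Among the ligands, Fgf7 (ENSMUSG00000027208, chromosome 2 from 126034658 to 126091185, GRCm38) had 1.47, 3.67, 4.36 and 4.396 CPM in DMSO-treated mice 480 to 483. After ABT-263 it had 33.6, 6.40 and 17.2 CPM in mice 476, 477 and 478. Every ABT-263-treated mouse was above every DMSO-treated mouse, but mouse 477 lay close to the DMSO range and mouse 476 far from it. The mean was 3.47 ± 1.38 CPM (SD, n = 4) in DMSO-treated mice, and 19.1 ± 13.7 CPM (SD, n = 3) in treated ones. On the log2 scale Fgf7 rose by 2.46 with a standard error of 0.57 (edgeR, adjusted p = 0.0230), or 5.49-fold with a 95% interval from 2.19- to 13.7-fold. Only 1.91% of all genes tested had a higher log2 fold change. The exact permutation test over the 35 splits of the mice gave p = 0.0286 (two-sided), the smallest it can give, and 0.129 after adjustment over the 9 members.

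The size of the Fgf7 change rested in part on mouse 476. Without it the fold change was 3.42 (log2 1.77, adjusted p = 0.0598 from edgeR), and without mouse 477 it was 7.51 (adjusted p = 0.0107). The gene passed in 2 of the 7 fits with a mouse left out, those without mice 480 and 477, and the adjusted p-values of the other 5 (without mice 481, 482, 483, 476 and 478) lay between 0.0501 and 0.0598. In all 7 fits Fgf7 remained higher after ABT-263.

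Fgf10 (ENSMUSG00000021732, chromosome 13 from 118669791 to 118792115), the other dermal ligand of FGFR2, stayed low. It had 1.31, 1.35, 1.232 and 1.93 CPM after DMSO and 1.22, 1.21 and 1.40 CPM after ABT-263. The groups overlapped, and the log2 fold change was -0.19 (95% interval -0.87 to 0.49, adjusted p = 0.662 from edgeR). With 24 to 65 read pairs per library, a change as large as that of Fgf7 lay outside this interval, as did any log2 rise above 0.49. Smaller rises, and falls down to -0.87, lay within it.

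The bases before the start site of these ligands are shown because Fgf7 passed the test and Fgf10 did not. They are the 250 bases upstream of the RefSeq start on build GRCm38.p6, 5′ to 3′ on the plus strand, with capitals for matches to 1 of 4 short motifs. The Fgf7 window lies at chr2:126034408-126034657 and the Fgf10 window at chr13:118714449-118714698. The Fgf7 window ends just before the span given above for Fgf7, but the Fgf10 window lies inside the span given for Fgf10. The RefSeq start of Fgf10 thus differs from the annotated start.
Fgf7: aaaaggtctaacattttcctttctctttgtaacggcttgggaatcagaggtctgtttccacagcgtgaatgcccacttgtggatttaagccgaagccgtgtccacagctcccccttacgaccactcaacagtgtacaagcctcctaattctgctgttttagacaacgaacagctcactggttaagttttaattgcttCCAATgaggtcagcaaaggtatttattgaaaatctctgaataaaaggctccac
Fgf10: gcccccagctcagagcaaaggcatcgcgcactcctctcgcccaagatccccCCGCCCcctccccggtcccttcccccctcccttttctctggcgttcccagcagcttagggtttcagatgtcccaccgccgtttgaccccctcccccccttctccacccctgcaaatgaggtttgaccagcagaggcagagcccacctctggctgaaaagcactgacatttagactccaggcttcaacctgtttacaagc
The motifs searched on both strands were the TATA box (TATAAA), the CCAAT box (CCAAT), the AP-1 site (TGANTCA) and the GC box (GGGCGG), none of which overlapped another in these windows. The Fgf7 window held 1 CCAAT, beginning 53 bases before the start site, a motif found in 33.8% of the 32851 RefSeq windows of this length. The Fgf10 window held 1 GC box on the minus strand, 199 bases before the start, and 32.7% of all windows held one. TATAAA and TGANTCA, present in 12.4% and 6.75% of all windows, were in neither. The Fgf7 window was the poorer in G and C, with 43.6% against 61.2% for Fgf10 and a median of 52.4% over all windows. RefSeq windows were found for 7 of the 9 members, and neither Fgf1 nor Fgfr1 had one. The window of Fgfr2, which did not pass, held 44% G and C, near the share of Fgf7. Whether these sequences bear on the changes was not tested.

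Fgf1 (ENSMUSG00000036585), a ligand that binds every FGF receptor and is released without a signal peptide, had the highest level per exon length of the 5 ligands in DMSO-treated skin. It lay between 14.3 and 26.4 CPM after DMSO and between 15.4 and 25.5 CPM in treated mice, and the groups covered nearly the same range (log2 fold change -0.060, 95% interval -0.61 to 0.49, adjusted p = 0.878 from edgeR). Fgf2 (ENSMUSG00000037225, chromosome 3 from 37348346 to 37410108), which also leaves the cell without a signal peptide and is stored on heparan sulfate, ranged from 7.65 to 13.4 CPM after DMSO. After ABT-263 it was at 16.7, 6.38 and 10.9 CPM, with both the highest and the lowest value of all mice (log2 fold change 0.12, 95% interval -0.63 to 0.88, adjusted p = 0.807). Exons of Nudt6 on the opposite strand cover 9.44% of those of Fgf2, which counting by strand separates, and Gm43439 on the same strand covers 3.76%, which it does not. Fgf18 (ENSMUSG00000057967, chromosome 11 from 33117430 to 33147400), a ligand known from the resting hair follicle, lay between 0.532 and 2.26 CPM after DMSO and between 1.47 and 2.11 CPM in treated mice (log2 fold change 0.26, 95% interval -0.84 to 1.37, adjusted p = 0.714). Its interval was the widest of the members that did not pass.

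Among the receptors, Fgfr1 (ENSMUSG00000031565, chromosome 8 from 25513654 to 25575718) was at 58.5, 63.2, 67.1 and 76.5 CPM after DMSO and at 102, 80.7 and 108 CPM after ABT-263. The groups did not overlap, although mouse 477 was again the lowest of the treated mice and lay just above mouse 483. The mean was 66.3 ± 7.65 CPM (SD, n = 4) in DMSO-treated mice, and 97.0 ± 14.5 CPM (SD, n = 3) in treated ones. Fgfr1 rose by 0.55 on the log2 scale with a standard error of 0.15, or 1.46-fold (edgeR, adjusted p = 0.0337). The exact permutation test gave p = 0.0286, and 0.129 adjusted over the 9 members. Fgfr1 passed in 2 of the 7 fits with a mouse left out, those without mice 477 and 483. In the others, without mice 480, 481, 482, 476 and 478, the adjusted p-value was between 0.0577 and 0.107, and the log2 fold change lay between 0.47 and 0.69 in all 7.

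Fgfr2 (ENSMUSG00000030849), the receptor of FGF7 and FGF10 on keratinocytes, was at 37.9, 82.7, 46.2 and 44.8 CPM after DMSO. After ABT-263 it was at 18.0, 38.6 and 38.7 CPM. Mouse 476, with the most Fgf7, had the least Fgfr2, and mouse 481, with the most hair follicle transcripts, had the most. The groups overlapped through DMSO-treated mouse 480 alone, and the log2 fold change of -0.74 (95% interval -1.55 to 0.080) did not pass (adjusted p = 0.160 from edgeR, and p = 0.114 in the exact permutation test). It was -0.44 without mouse 481 (adjusted p = 0.318) and -0.45 without mouse 476 (adjusted p = 0.360). In the annotation used here Fgfr2 runs from 130162451 to 133123350 on chromosome 7 and shares 3.04% of its exon bases with Ctbp2 on the same strand. Counts per gene do not separate the epithelial from the mesenchymal splice form of either Fgfr1, Fgfr2 or Fgfr3.

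Fgfr3 (ENSMUSG00000054252, chromosome 5 from 33721674 to 33737068) was at 49.8, 66.5, 53.6 and 39.5 CPM after DMSO and at 32.1, 55.1 and 58.4 CPM after ABT-263. Treated mice 477 and 478 lay inside the DMSO range and mouse 476 below it (log2 fold change -0.11, 95% interval -0.67 to 0.45, adjusted p = 0.772 from edgeR). Fgfrl1 (ENSMUSG00000008090, chromosome 5 from 108692382 to 108706924), whose product binds FGF ligands without a kinase to signal through, was at 18.0, 22.6, 16.8 and 29.5 CPM after DMSO. In treated mice it was at 15.7, 11.4 and 21.3 CPM, with a fitted change of -0.43 (log2) and an interval from -1.04 to 0.18 (adjusted p = 0.261). The 3 receptors other than Fgfr1 thus all had negative estimates, none past the threshold.

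**Figure D2:**
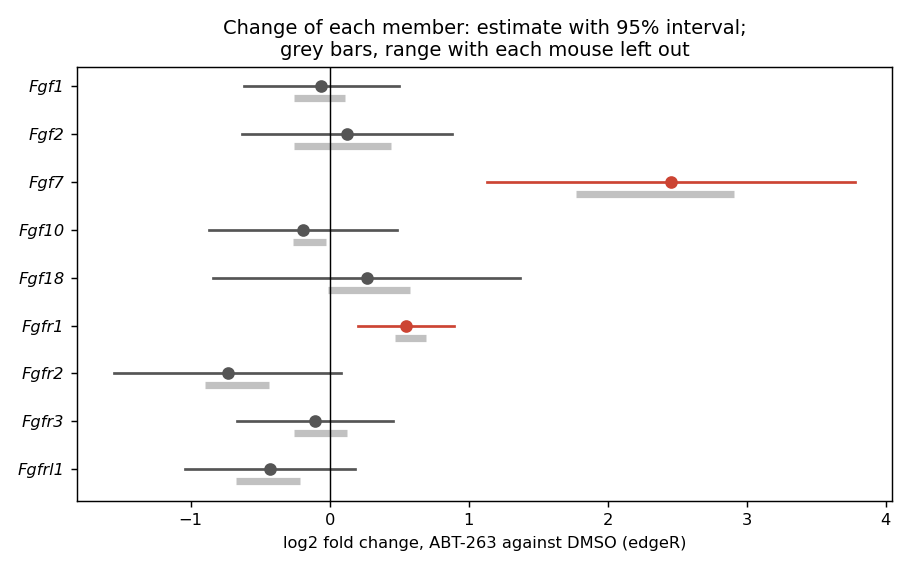
Fitted log2 fold change of each member, ABT-263 against DMSO, from edgeR (points) with its 95% interval (thin lines, red where the adjusted p-value was under 0.05). Grey bars span the estimates with 1 mouse left out at a time. The intervals of Fgf7 (1.13 to 3.78) and Fgfr1 (0.20 to 0.89) lie above 0 and those of the other 7 members include it.

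In bulk skin, more transcript per cell and more cells that carry the transcript cannot be told apart, so the levels of cell type markers were set beside the members. Of the 8 dermal fibroblast markers, 3 were higher after ABT-263 and 0 lower, and their sum was 3859 to 5418 CPM after DMSO and 6165 to 8713 CPM after ABT-263, without overlap. In mice 476, 477 and 478 the sum, made up largely of Col1a1 and Col1a2, was 6165, 6422 and 8713 CPM. The single markers differed in order. Pdgfra, Pdgfrb and Dcn were highest in mouse 476, the mouse with the most Fgf7, and Col1a1, Col1a2, Dpt, Lum and Mfap5 in mouse 478. All 6 endothelial markers were higher, with a sum of 134 to 299 CPM after DMSO and 444 to 584 CPM after ABT-263. Of the macrophage markers 5 of 7 were higher, and of the neutrophil markers 3 of the 5 tested, with sums that did not overlap between the groups (299 to 877 against 1001 to 2726 CPM, and 99.8 to 1820 against 5097 to 8318 CPM). None of the markers in these 4 lists was lower. Over all genes tested, 12.4% were higher and 11.7% lower, and 18.7% lay above all DMSO-treated mice without overlap. Of the skeletal muscle markers 2 of 7 were lower and of the 8 tested hair follicle markers 1 was lower, while 0 of 8 markers of differentiated keratinocytes passed. Of the 6 T cell markers, a class that includes the epidermal cells known to make FGF7, 0 passed, and of the 7 adipocyte markers 0 passed. The skeletal muscle sum was 33763 to 68834 CPM after DMSO and 26455 to 35486 CPM after ABT-263. The adipocyte sum was 761 to 2550 CPM after DMSO and 2768, 891 and 3428 CPM in mice 476, 477 and 478. The T cell sum was 14.5 to 26.5 CPM after DMSO. It was 45.2 CPM in mouse 476, the mouse with the most Fgf7, and 14.1 and 12.4 CPM in mice 477 and 478. The part of any of these in the changes of Fgf7 and Fgfr1 was not tested beyond the comparison that follows.

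Relative to the mean log2 CPM of the 8 fibroblast markers, the difference of Fgf7 between the groups was 1.46 on the log2 scale (exact permutation test, p = 0.0857) where it had been 2.27, and mice 477 and 481 then overlapped. That of Fgfr1 was -0.27 (exact permutation test, p = 0.171) where it had been 0.54. Measured against the fibroblast markers, the treated mice lay within the DMSO range or below it for Fgfr1, and for Fgf7 mice 476 and 478 stayed above all DMSO-treated mice. Against the 8 basal keratinocyte markers the difference of Fgfr2 was -0.56 (exact permutation test, p = 0.171) and that of Fgfr3 was 0.058 (p = 0.857). The summed basal markers overlapped between the groups (18597 to 31472 CPM after DMSO and 14049 to 36209 CPM after ABT-263), with 1 marker higher (Itga6) and 1 lower (Krt15). Fgf7 against the basal markers differed by 2.46, without overlap (exact permutation test, p = 0.0286), where 13.4% of all genes tested lay above in this way. The mean of the fibroblast markers was itself 0.81 higher (log2) in treated mice, which lowers every gene by that amount. On that reference Fgf10, Fgfr2 and Fgfrl1 lay below all DMSO-treated mice, as did 45.5% of all genes tested. Of the 18 such comparisons, all chosen after the values were seen, the smallest p was 0.0286, or 0.129 after adjustment over the 18.

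**Figure D3:**
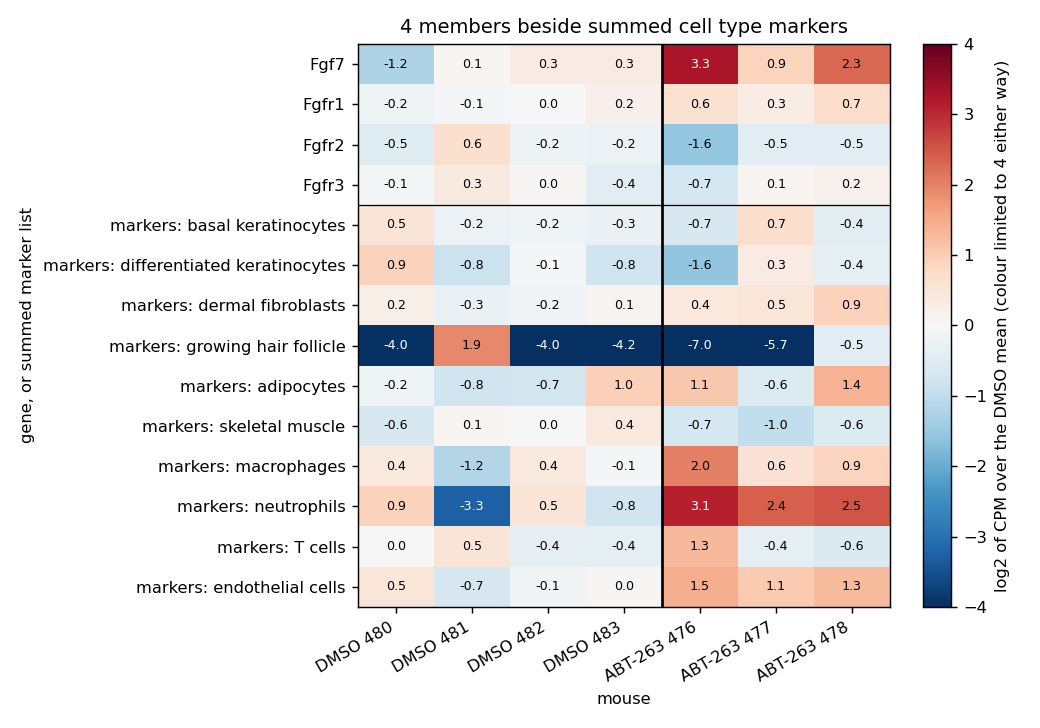
Each cell is the log2 of a mouse's CPM over the mean of the DMSO-treated mice, for 4 members (top rows) and for the summed markers of 10 cell types (lower rows), with mice in columns and the treatments divided by the black line. Fgf7 reads 3.27, 0.88 and 2.31 in the treated mice, and the fibroblast, macrophage, neutrophil and endothelial rows are positive in all 3 of them.

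Levels of different genes were compared only per exon length, as CPM per kilobase of exon (RPKM). In DMSO-treated skin the receptors led, with Fgfrl1 at 7.81 ± 2.06, Fgfr3 at 7.32 ± 1.56, Fgfr1 at 6.72 ± 0.774 and Fgfr2 at 5.12 ± 1.96 RPKM (SD, n = 4). Neighbours in this order overlapped, so it does not rank them. Fgf1 followed at 3.86 ± 0.921 RPKM and overlapped Fgfr2, while Fgf2 (1.53 ± 0.364), Fgf18 (1.21 ± 0.678) and Fgf7 (1.07 ± 0.424 RPKM) lay below all values of Fgf1 and overlapped each other. Fgf10 came last at 0.316 ± 0.0697 RPKM, below every value of Fgf7. After ABT-263, Fgfr1 led at 9.82 ± 1.47 RPKM (SD, n = 3), above every value of Fgfr3, the next in order, but not of Fgf7, which was at 10.35 RPKM in mouse 476 against 10.32 for Fgfr1. Fgf7 came next at 5.87 ± 4.22 RPKM, but with values from 1.97 to 10.35 RPKM it overlapped its neighbours, and Fgf10 remained last at 0.277 ± 0.0230 RPKM. With the length of the longest transcript in place of all exons, Fgfr1 led in both groups and Fgf10 was last in both, so the order among the receptors depended on the length used.

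**Figure D4:**
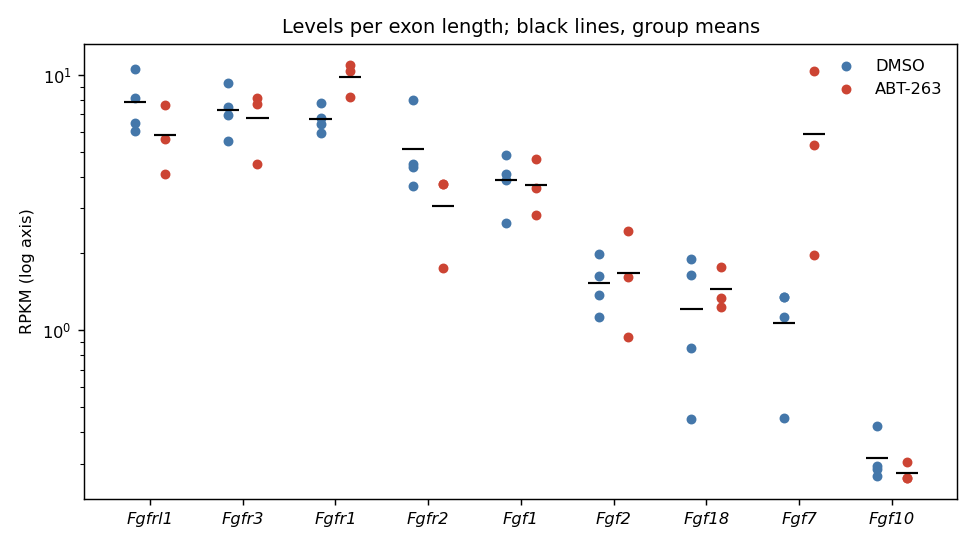
Levels of the members per kilobase of exon (RPKM, log axis) in each mouse after DMSO (blue) and ABT-263 (red), ordered by the DMSO mean, with group means as black lines. Fgf7 is the eighth of 9 after DMSO (1.07 RPKM) and the third after ABT-263 (5.87 RPKM), while Fgf10 is the lowest in both.

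The dermal ligands were also set against the epidermal receptors within each mouse, as the ratio of Fgf7 plus Fgf10 to Fgfr2 plus Fgfr3 in RPKM. The ratio was 0.0695, 0.0822, 0.135 and 0.180 in DMSO-treated mice 480 to 483. It was 1.70, 0.195 and 0.471 in ABT-263-treated mice 476, 477 and 478. With the length of the longest transcript the ratio was lower in every mouse. It was then 0.0429, 0.0495, 0.0837 and 0.109 in mice 480 to 483, and 1.11, 0.124 and 0.302 in mice 476, 477 and 478. The treated mice lay above the others, mouse 477 only just, and mouse 476 combined the highest ligand sum (10.6 RPKM) with the lowest receptor sum (6.23 RPKM). In the other treated mice the receptor sums of 11.4 and 11.9 RPKM lay within the DMSO range of 9.85 to 17.3 RPKM. The mean ratio of the treated mice, by all exons, was 0.790, and 0.333 without mouse 476. The ratio is a description of the members, with no test.

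The genes whose profile over the 7 mice was most like that of a member were searched among 13679 protein-coding genes with a mean of at least 1 CPM, by the root mean square distance of centred log2 CPM. Closest to Fgf7 were Hsd11b1 (distance 0.308), which regenerates active glucocorticoid, Tlr4 (0.356), the receptor for bacterial lipopolysaccharide, and Lif (0.357), a cytokine of the IL-6 family. Fgf7 itself spanned 4.49 log2 units over the mice. Closest to Fgfr2, which spanned 2.20, were Ctnnd2 (0.134), Sh3d21 (0.141) and Kremen2 (0.151), the last a receptor of Wnt inhibitors. Fgfr3 was closest to Slitrk6 (0.0814), the tight junction gene Cldn1 (0.102) and Lrba (0.106). Fgf10, which spanned only 0.675, was closest to Cpt2 (0.0696), Elmod3 (0.0801) and Tns2 (0.0860). With 7 mice and so many genes these are descriptions.

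Among 86 further genes of the FGF system in 9 lists, 74 were tested, and 10 were higher and 5 lower after ABT-263. That is 20.3%, against 24.2% of all genes tested. The median log2 fold change of the 74 genes was 0.012. These counts depended on single mice. Without mouse 478, 2 were higher and 0 lower, without mouse 476, 5 and 1, without mouse 482, 4 and 0, without mouse 483, 4 and 1, and without mouse 481, 7 and 1. Without mouse 480, 11 were higher and 2 lower, and without mouse 477, 10 and 7. Over all genes the calls went from 4342 to between 1735 (without mouse 478) and 4169 (without mouse 480).

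Of the 13 other secreted ligands only 5 were tested, and none passed. Fgf22, a ligand of hair follicles and nerve terminals, ranged between 8.59 and 34.99 CPM after DMSO and between 4.08 and 16.3 CPM in treated mice (adjusted p = 0.349 from edgeR), and Fgf9 had a fitted log2 difference of -0.84 (adjusted p = 0.250). Fgfr4, the remaining receptor with a kinase, was at 1.13 to 2.91 CPM after DMSO and 0.679 to 1.66 CPM after ABT-263 (log2 fold change -0.74, adjusted p = 0.237). Neither of the 2 intracellular homologous factors tested, Fgf11 and Fgf13, passed (log2 fold changes -0.38 and 0.018).

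Of 7 co-receptors and binding partners tested, 2 were higher and 2 lower. Fgfbp1, a carrier that frees FGFs from the matrix, had 69.6 ± 18.8 CPM (SD, n = 4) after DMSO, rising to 124 ± 9.07 CPM (SD, n = 3) after ABT-263, without overlap (fitted log2 difference 0.83, error 0.21, edgeR adjusted p = 0.0256). Flrt2, a membrane protein of a family that binds FGF receptors, rose by 0.72 (adjusted p = 0.0285). Its relative Flrt1 went from 3.56 ± 1.39 CPM to 1.04 ± 0.470 CPM, a fitted log2 difference of -1.76 (error 0.44, adjusted p = 0.0262). Fibp, an intracellular binding protein of FGF1, fell by 0.61 on that scale (adjusted p = 0.0486). With 1 mouse left out, Fgfbp1 and Flrt1 passed in 3 of the 7 fits, Flrt2 in 2 and Fibp in 1. Klb, a co-receptor of hormone-like FGFs, was below 1 CPM in every mouse and did not pass.

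Heparan sulfate, which holds the ligand on its receptor, is carried by core proteins and trimmed by enzymes. Of 9 core protein genes tested, 1 passed: Gpc6, a glypican, with a log2 fold change of -1.29 (from 4.33 ± 0.984 to 1.75 ± 0.853 CPM, adjusted p = 0.0469 from edgeR). Of 12 enzymes, 3 were higher and 0 lower. Sulf1, a secreted sulfatase that removes the 6-O-sulfate groups needed for FGF2 signaling, went from 8.79 ± 2.11 CPM to 23.6 ± 10.9 CPM (log2 fold change 1.43, standard error 0.33, adjusted p = 0.0210). In mice 476, 477 and 478 it was at 34.6, 12.9 and 23.4 CPM. That order was seen for Fgf7 and also for Ndst2, Spred1 and Pdgfra, but not for Shc1 or Dusp4. Ndst2, a sulfotransferase, rose by 0.93 (adjusted p = 0.00871) and Extl3, which starts the chain, by 0.54 (adjusted p = 0.0249). Ndst2 passed in all 7 fits with a mouse left out, Sulf1 and Extl3 in 3 of them and Gpc6 in 1.

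Of the 20 genes between receptor and ERK, 3 were higher and 2 lower. Map2k1, which encodes MEK1, went from 24.7 ± 3.49 CPM to 64.3 ± 11.6 CPM (fitted log2 difference 1.38, error 0.17, edgeR adjusted p = 0.00602). It passed in all 7 fits with a mouse left out. The adaptor Shc1 rose by 0.67 (adjusted p = 0.0138) and the phosphatase Ptpn11 (SHP2) by 0.59 (adjusted p = 0.0154). Nras, a GTPase upstream of MEK1, fell by 0.64 on the log2 scale (adjusted p = 0.0352). The FGF receptor adaptor Frs2 was at 0.093 on that scale (adjusted p = 0.753). With 1 mouse left out, Shc1 passed in 6 of the 7 fits, Ptpn11 in 5 and Nras in 1. These genes serve many receptors besides those of FGFs.

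Of the 14 feedback inhibitors and target transcription factors, whose transcripts are known to follow FGF and ERK activity, 2 were higher and 0 lower. Spred1 was at 20.98 ± 2.58 CPM after DMSO and 35.7 ± 9.94 CPM after ABT-263 (log2 fold change 0.77, adjusted p = 0.0297 from edgeR), and Dusp4, an ERK phosphatase, at 1.42 ± 0.210 and 3.06 ± 0.789 CPM (log2 fold change 1.10, adjusted p = 0.0268). With 1 mouse left out, Dusp4 passed in 3 of the 7 fits and Spred1 in 1, and neither passed without mouse 476, 478, 482 or 483. None of the 4 Sprouty genes passed, with log2 fold changes from -0.28 to 0.68. Dusp6 reached 64.4 CPM in mouse 476, but its values in mice 477 and 478 (30.7 and 31.9 CPM) lay within the DMSO range of 24.2 to 35.5 CPM (adjusted p = 0.242). Etv4 and Etv5 had log2 fold changes of -0.31 and -0.24 (adjusted p = 0.453 and 0.238). Of the splicing regulators that choose the epithelial or mesenchymal receptor form, 0 of 4 passed, and the epithelial regulators Esrp1 and Esrp2 had estimates of opposite sign (log2 fold changes -0.67 and 0.25, adjusted p = 0.159 and 0.557).

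**Figure D5:**
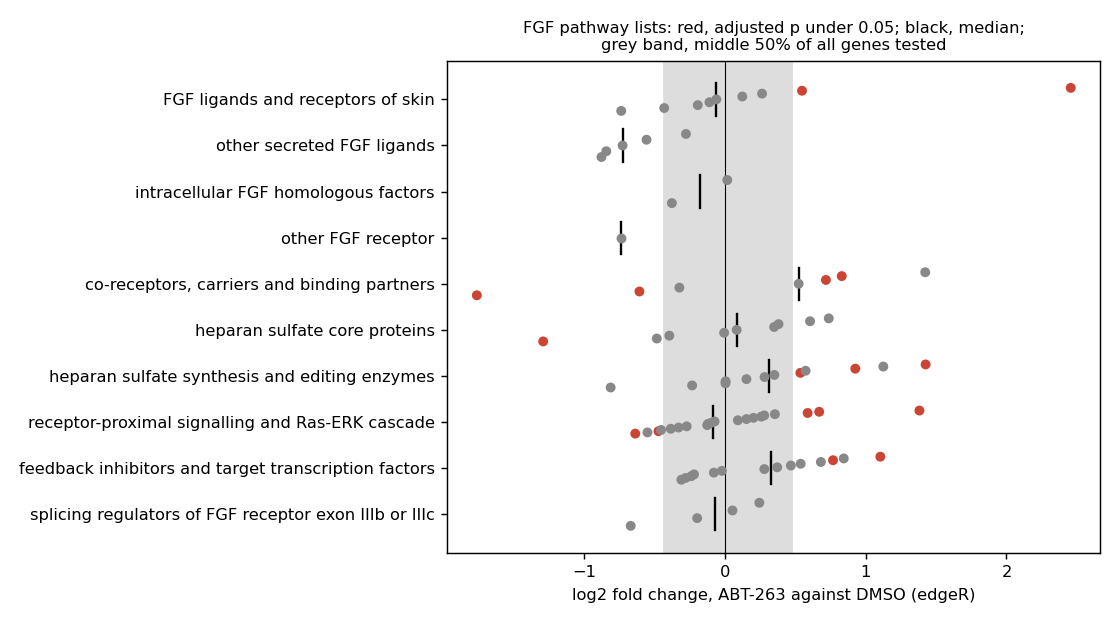
Fitted log2 fold changes (horizontal axis) of the tested genes in each list of the FGF system, 1 point per gene, red where the adjusted p-value from edgeR was under 0.05, with the list's median as a black line. The grey band holds the middle 50% of all genes tested. The 15 red points outside the top row lie on both sides of 0.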

How the data were processed

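Bulk RNA-seq of skin from 7 aged mice was analysed, 1 library per mouse, with groups taken from the treatment labels. The authors aligned reads to mm10 with STAR (2.7.9a), assigned properly paired, uniquely mapped reads to Ensembl genes by strand with featureCounts (Subread 1.6.2), and deposited raw counts and variance-stabilized log2 values made with DESeq2 (1.23.10). The deposited counts were used for all results, and the deposited log2 values only for an alternative. Mitochondrial genes were not counted by the authors, so CPM is relative to the other genes.

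Genes were filtered with filterByExpr and scaled by TMM. They were then tested with the robust quasi-likelihood fit of edgeR (4.0.16, R 4.3.3), with p-values adjusted by Benjamini-Hochberg across 17959 genes and a threshold of 0.05. CPM values are TMM-scaled. Symbols, positions and lengths came from GENCODE M21, which held 55190 of the 55450 identifiers. Single values were compared by two-sided exact permutation tests over the 35 splits of the mice, after a prior count of 0.5 for log2 CPM. The code was tested on simulated data. Library totals ran from 20344364 to 43562330.

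The members and all lists were chosen with earlier results of these data known. Named pathway genes were those of each list past the threshold, and in lists with none the genes with the smallest p-values, apart from 1 gene that is not reported here, and the Sprouty genes, Dusp6, Etv4, Etv5, Frs2, Klb and Esrp2 were added after their values were seen. Alternatives were DESeq2 (1.42.0), DESeq2 size factors, looser and stricter count filters, protein-coding genes alone, removal of length and GC trends (mgcv 1.9.3), limma (3.58.1), thinning to the smallest library, and each mouse left out.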

Additional observations from a re-analysis of the deposited data

Results flagged for a closer look

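Among 42 measures in the 4 DMSO-treated mice, 5 had 1 mouse whose gap to its neighbour, as a share of the range of the group, exceeded the 95% critical value of Dixon's test, where chance gives about 2.1. The share was 0.833 for Fgf10 (mouse 483 highest at 1.93 CPM). Mouse 480 was the highest for Fgf22 (0.859), for the summed basal keratinocyte markers (0.911), and stood apart for Shc1 (0.866). Mouse 481 was the highest for the summed markers of the growing hair follicle (0.998). The groups of 3 ABT-263-treated mice were not tested in this way.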

How the results depend on the processing

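When 1 mouse was left out at a time, the genes higher numbered 850 to 2286, lower 771 to 2104 and changed 1735 to 4169. The members higher numbered 0 to 2, the pathway genes higher 2 to 11 and lower 0 to 7. The log2 fold changes ranged from 1.77 to 2.91 for Fgf7 and from 0.47 to 0.69 for Fgfr1. They ranged across 0 for Fgf1 (-0.26 to 0.11), Fgf2 (-0.25 to 0.44), Fgf18 (-0.015 to 0.57) and Fgfr3 (-0.26 to 0.12).

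With every gene that had a count in the fit, 1 member was higher and 2 pathway genes lower, and Fgf7, at 2.48, had an adjusted p of 0.0574 from edgeR. That fit tested 30645 genes. With length and GC trends removed, Fgf2 had a log2 fold change of -0.0080, and the cause was not tested. In the other fits over all mice both called members passed, but the adjusted p-value depended on the method. For Fgf7 it was 9.5e-05 by the Wald test of DESeq2 and 0.0321 by limma. For Fgfr1 it was 0.0146 by the Wald test of DESeq2 and 0.0338 by limma. The changed genes numbered 5661 by DESeq2.

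Relative to fibroblast markers, a comparison chosen after seeing the data, the log2 difference was -0.76 for Fgf2, 1.46 for Fgf7, -0.99 for Fgf10, -0.38 for Fgf18, -0.27 for Fgfr1, -1.57 for Fgfr2 and -1.25 for Fgfrl1. Relative to basal keratinocyte markers it was 2.46 for Fgf7, 0.13 for Fgf1, 0.014 for Fgf10, 0.74 for Fgfr1 and 0.058 for Fgfr3. Per kilobase of the longest transcript, Fgf1, Fgfr1, Fgfr2 and Fgfr3 were at 5.29, 13.2, 11.9 and 12.3 RPKM after DMSO.

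No paired analysis was possible because the labels give each mouse its own number and the groups share none. Fgf10 and Fgf18 had under 100 read pairs in every library, and 8 of the 13 other ligands had too few reads to be tested.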

Other observations

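Fgf23, the hormone by which bone regulates phosphate, was too rarely counted to enter the test and was singled out after its values were seen. It had 0, 0, 0 and 1 read pairs in DMSO-treated mice 480 to 483, and 184, 3 and 13 in ABT-263-treated mice 476, 477 and 478. Mouse 476 had 6.58 CPM and the other treated mice 0.0756 and 0.279 CPM. Mouse 476, the highest, was also the highest for Fgf7.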
